A study of Mus musculus with 18 samples.

Results

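The comparison described here is that of cells held on a stiff matrix with the condition labelled TW (Stiff-TW) against cells on the same matrix without it (Stiff). Its members are the libraries whose labels give one of these 2 groups, 3 in each, which makes 6 of the 18 libraries of the study, and all genes were examined. The other groups were a soft matrix alone (Soft), the soft matrix with TW (Soft-TW), and either matrix with what is labelled mito (Soft+mito, Stiff+mito). All 6 groups carry the same cell line label, RAW264.7, which names macrophages that came from a mouse tumour raised by Abelson virus. The labels do not spell out TW or mito, and they give no stiffness, dose, time or density of the cells. The series title names stiffness and the transfer of mitochondria as its subject, and the comparison asks which transcripts differed between cells with and without TW when both were on the stiff matrix.

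Several gene programmes named below have well known controls. When oxygen is low, HIF proteins escape degradation and activate genes for glucose uptake, glycolysis, blood vessel growth and the removal of mitochondria. When amino acids or protein folding fall short, ATF4 activates genes that make and import amino acids, a programme called the integrated stress response. Interferons act through STAT and IRF factors on antiviral genes, and growth factors and stress act through MAP kinases on immediate early genes of the FOS, JUN and EGR families.

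The totals of estimated counts ran from 16054637 to 16197328 in Stiff and from 16331498 to 16377561 in Stiff-TW. On a principal component analysis of the 6 libraries the first component held 77.8% of the variance and separated the groups, while the second held 7.26% and separated libraries within groups. The labels call the libraries of a group separate biosamples and do not say that they came from separate cultures, so the p-values below reflect no more than how far these libraries spread, and that spread may be technical. The spread within groups was estimated over all 18 libraries in 6 groups. It was small, with a common biological coefficient of variation of 0.0175, and even slight differences between the groups passed the test.

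Several transcripts did not match the label of the cell line. Csf1r, through which CSF1 keeps macrophages alive, had counts of 4, 3 and 3 in the Stiff libraries and of 10, 17 and 8 in the Stiff-TW libraries. Adgre1, which encodes F4/80, had 0, 0 and 1 counts in Stiff and 1, 3 and 1 in Stiff-TW. Ptprc, which encodes CD45, had 1, 2 and 1 counts in Stiff and 4, 5 and 2 in Stiff-TW. These defining transcripts of macrophages were thus near 0 in both groups. Other members of the macrophage and myeloid list were not. Cd14 stood at 20.8 ± 0.795 TPM in Stiff and 27.1 ± 1.58 TPM in Stiff-TW (SD, n = 3), and Lyz2 at 7.39 ± 1.39 and 13.4 ± 2.33 TPM. Of the 20 members in the table, 1 had a mean of at least 10 TPM in Stiff and 3 did in Stiff-TW. The keratin gene Krt8 was abundant, at 456 ± 2.84 TPM in Stiff and 439 ± 8.82 TPM in Stiff-TW (SD, n = 3), as was its partner Krt18 at 247 ± 8.84 and 235 ± 3.43 TPM. They were the only 2 of 16 epithelial markers in the table with a mean of at least 10 TPM in either group. Epcam had 0, 0 and 1 counts in Stiff and 0 in each Stiff-TW library. Cdh1 had 9, 6 and 0 counts in Stiff and 3, 2 and 5 in Stiff-TW. Neither keratin gene passed the test, with log2 differences of 0.00 ± 0.0219 (adjusted p = 0.951) for Krt8 and -0.01 ± 0.0281 (adjusted p = 0.863) for Krt18. With limma on log2(TPM + 1), however, 2 epithelial markers were tested and both were lower in Stiff-TW, so the absence of a call for the keratin genes rests on the scale. The cells are therefore called by their label only, and no other cell type is assigned to them.

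TW on the stiff matrix went with a change in most of the transcriptome, but mostly by small amounts. Of 12245 genes tested, 4345 (35.5%) were higher in Stiff-TW and 4176 (34.1%) were lower at an adjusted p under 0.05 in edgeR's quasi-likelihood test with Benjamini-Hochberg adjustment. The median size of the log2 fold change among the 8521 changed genes was 0.359. A change of at least 2-fold was met by 752 genes (6.14% of those tested), 510 of them higher and 242 lower. For 72.2% of genes the 3 Stiff-TW libraries lay entirely above or entirely below the 3 Stiff libraries. Counts of list members below are read against these shares, and all log2 fold changes are Stiff-TW minus Stiff with an approximate standard error unless another contrast is named. For every gene below that passed the test and is given with its TPM in each library, the 3 Stiff-TW libraries did not overlap the 3 Stiff libraries. List members given by a log2 fold change with no standard error, and Atf4, Cxcl1, Cxcl2, Tnfaip3 and the keratin genes, were chosen after their values were seen. In bulk RNA, fewer cells of a type and less RNA per cell cannot be told apart.

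**Figure D1:**
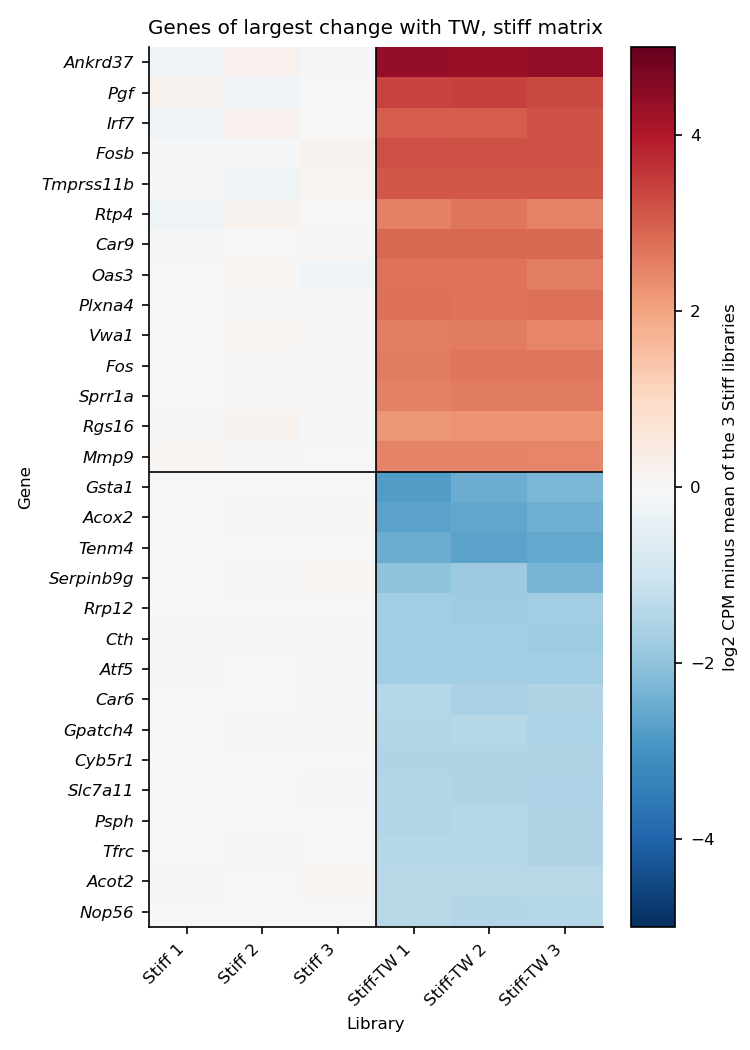
Colours give log2 CPM (counts scaled to the size of the library) minus the mean of the 3 Stiff libraries, for genes among the 15 that rose most and the 15 that fell most; columns are the 6 libraries. In every row the 3 Stiff-TW libraries lie on one side of the 3 Stiff libraries, and Ankrd37 shows the largest rise (red) and Gsta1 the largest fall (blue).

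Genes that low oxygen is known to induce had the highest median rise of the pathway lists. Of 32 tested genes on a list of hypoxia and HIF targets, 26 were higher in Stiff-TW and 2 were lower, and 19 rose at least 2-fold. The median log2 fold change of the list was 1.43, against 0.009 for all genes tested. Ankrd37, a small ankyrin repeat protein and HIF target (chr8:45996908-46000414 in mm10, on the minus strand), stood at 3.35, 4.74 and 3.4 TPM in Stiff and at 100, 98.5 and 100.4 TPM in Stiff-TW. It rose 26.6-fold in the fit, with a log2 fold change of 4.73 ± 0.102 (adjusted p = 5.49e-69), the largest rise among genes with a mean of at least 5 CPM that carry an established symbol. Car9, a carbonic anhydrase of the cell surface that removes acid produced by glycolysis (chr4:43507026-43513729, plus strand), stood at 28.1, 29.3 and 30.5 TPM in Stiff and 211, 210.4 and 207 TPM in Stiff-TW. Its log2 fold change was 2.89 ± 0.0368 (adjusted p = 8.78e-91), and the groups did not overlap for either gene.

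The promoters of the hypoxia genes were searched for the core letters to which HIF binds. Sequences were taken from RefSeq (GRCm38.p6) as the 250 bases before and 50 bases after each annotated start, and were searched on both strands for ACGTG. Of 26 hypoxia genes that rose, 23 had a promoter in that table and 19 of the 23 (82.6%) held ACGTG, and 21.8% of all 27025 genes with a promoter there did so. The list was drawn up from known HIF targets, so this share describes the list and not an effect of TW. Among the 15 genes that rose most, of which 10 had a promoter, 3 held it, and among the 15 that fell most, of which 12 had one, 3 held it. A match is a description of the letters and not of binding. The promoters of Ankrd37 (chr8:45999801-46000100, minus strand), Car9 (chr4:43506776-43507075, plus strand) and Bnip3 (chr7:138909457-138909756, minus strand) are shown 5′ to 3′ on the strand of the gene, because these genes were among the largest changes of the list. The Ankrd37 window lies wholly inside the gene span given above, so its annotated start is not the outermost one of that span. Capitals mark ACGTG or its reverse complement, which overlap in Bnip3.
Ankrd37: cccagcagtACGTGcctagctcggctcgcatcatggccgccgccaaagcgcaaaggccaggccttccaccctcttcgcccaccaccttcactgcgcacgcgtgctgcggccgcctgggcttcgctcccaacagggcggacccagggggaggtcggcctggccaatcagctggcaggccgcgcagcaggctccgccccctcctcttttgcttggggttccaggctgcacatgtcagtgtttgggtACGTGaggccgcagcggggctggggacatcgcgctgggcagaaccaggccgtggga
Car9: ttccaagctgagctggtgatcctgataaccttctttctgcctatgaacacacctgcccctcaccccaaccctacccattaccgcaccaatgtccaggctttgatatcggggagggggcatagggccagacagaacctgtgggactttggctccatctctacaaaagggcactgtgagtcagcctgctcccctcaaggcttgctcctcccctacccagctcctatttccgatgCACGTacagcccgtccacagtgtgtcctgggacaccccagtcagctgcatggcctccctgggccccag
Bnip3: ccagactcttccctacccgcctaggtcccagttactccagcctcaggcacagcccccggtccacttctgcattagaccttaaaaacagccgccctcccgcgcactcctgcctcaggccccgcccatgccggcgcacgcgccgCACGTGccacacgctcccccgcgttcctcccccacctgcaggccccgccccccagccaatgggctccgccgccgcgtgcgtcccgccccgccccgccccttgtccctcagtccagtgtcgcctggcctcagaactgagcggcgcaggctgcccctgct

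Other hypoxia genes of several roles rose with them. Ero1a, an oxidase that forms disulfide bonds in the endoplasmic reticulum, stood at 325, 327 and 329.9 TPM in Stiff and 1458, 1458 and 1475 TPM in Stiff-TW, a log2 fold change of 2.20 ± 0.0185 (adjusted p = 7.62e-109). Ndrg1, a stress responsive gene, stood at 254, 253 and 253 TPM in Stiff and 821, 826 and 818 TPM in Stiff-TW and rose by 1.74 ± 0.0193 (adjusted p = 9.72e-97). The oxygen sensors of the feedback loop, the prolyl hydroxylase genes Egln1 and Egln3, rose by 1.59 and 1.59 on the log2 scale, while Hif1a itself rose by 0.38. Of the signals, Vegfa rose by 0.93 ± 0.0227 (adjusted p = 7.63e-64) and Adm, which encodes adrenomedullin, by 2.28. Angptl4 and Plin2, both also linked to lipid handling, fell, with log2 fold changes of -1.05 and -0.51, and Edn1, Slc2a3, Pfkfb4 and Hif3a did not pass the test.

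Enzymes of glycolysis followed the same direction. Of 19 listed genes, 16 rose and 1 fell, with a median of 0.83. This list and the hypoxia list share genes such as Pgk1, so their counts are not separate results. Gapdh, the enzyme of the first oxidation step, stood at 6522, 6313 and 6452 TPM in Stiff and 15150, 15106 and 15120 TPM in Stiff-TW and rose by 1.30 ± 0.0173 (adjusted p = 8.24e-89). Pgk1, the next enzyme, stood at 1038, 1055 and 1051 TPM in Stiff and 2680, 2697 and 2732 TPM in Stiff-TW and rose by 1.42 ± 0.0192 (adjusted p = 6.66e-87). Gpi1, which makes fructose phosphate, rose by 1.34 ± 0.0195 (adjusted p = 2.83e-85) and the aldolase gene Aldoa by 1.18 ± 0.0182 (adjusted p = 6.68e-83). Eno2, an enolase, had the largest rise of the list at 2.54. Slc16a1, a lactate and pyruvate carrier, fell, with -0.61, and Aldoc and Ldhb did not pass the test. Pdk1, a kinase that inhibits pyruvate dehydrogenase, rose by 1.75. Of 20 genes of the tricarboxylic acid cycle and pyruvate entry, 5 rose and 13 fell, with a median of -0.11.

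**Figure D2:**
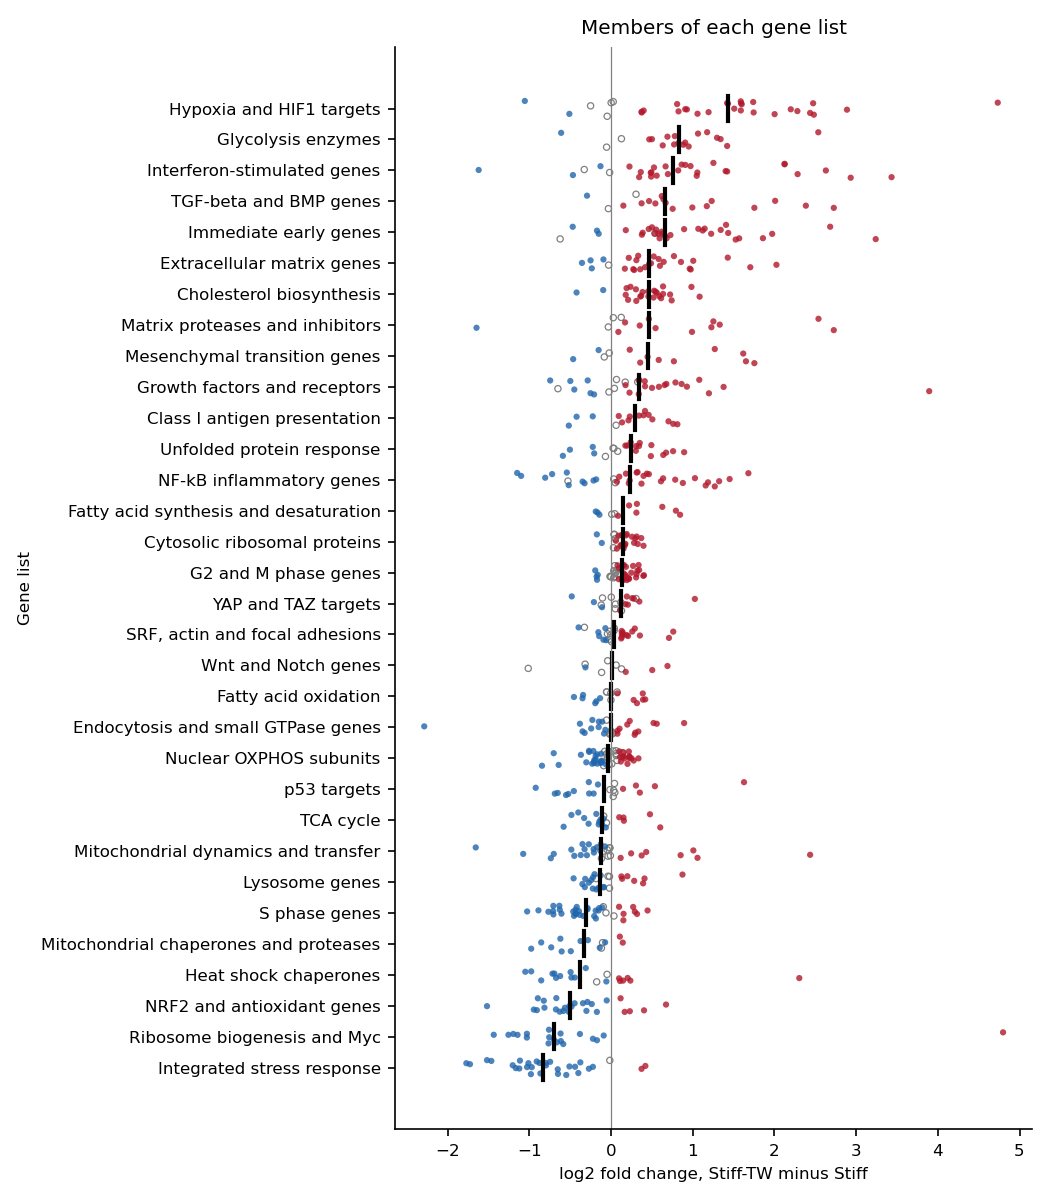
Each point is a tested member of a gene list, placed at its log2 fold change (Stiff-TW minus Stiff); filled red and blue points passed the test and open points did not, and the black bar is the list's median; lists named for targets also hold factors of the pathway. Among the lists plotted, hypoxia targets have the highest median at 1.43 and integrated stress response genes the lowest at -0.83.

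Genes of growth factor signalling, extracellular matrix and its turnover were mostly higher. Of 30 growth factor and receptor genes tested, 18 rose and 6 fell. Pgf, which encodes placental growth factor of the VEGF family, stood at 1.43, 0.98 and 1.43 TPM in Stiff and 17.2, 17.9 and 16.3 TPM in Stiff-TW and rose by 3.89 ± 0.149 (adjusted p = 5.58e-46). Pdgfra, a receptor for platelet-derived growth factor, stood at 25.8, 25.8 and 26 TPM in Stiff and 67.5, 68.2 and 66.2 TPM in Stiff-TW and rose by 1.38 ± 0.0283 (adjusted p = 7.63e-71), while Pdgfrb, the other receptor of that family, fell, with -0.28. Among TGF-beta and BMP genes 15 of 18 rose and 1 fell, with a median of 0.66. Bmp2, a ligand of the BMP branch, stood at 5.67, 5.84 and 6.12 TPM in Stiff and 23.7, 23.6 and 21.7 TPM in Stiff-TW and rose by 2.01 ± 0.0621 (adjusted p = 3.23e-54). The fall was that of the receptor gene Tgfbr1, with -0.29.

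The gelatinase gene Mmp9 stood at 4.28, 3.74 and 4.05 TPM in Stiff and 23.1, 23 and 22.1 TPM in Stiff-TW and rose by 2.54 ± 0.0762 (adjusted p = 2.25e-55). Among 15 matrix proteases and inhibitors 11 rose, and the 1 that fell was Serpinb2, an inhibitor of urokinase, with -1.65. Among 27 extracellular matrix genes 22 rose and 4 fell, with a median of 0.47. Plod2, which hydroxylates lysines of collagen before crosslinking, stood at 48.2, 49.8 and 49 TPM in Stiff and 156, 159 and 157 TPM in Stiff-TW and rose by 1.71 ± 0.026 (adjusted p = 2.58e-83). Tnc, which encodes tenascin C, rose by 2.03, and Vcan, which encodes versican, by 1.01 ± 0.0251 (adjusted p = 6.74e-63). Vim, which encodes the filament protein vimentin, stood at 1420, 1413 and 1444 TPM in Stiff and 4197, 4229 and 4224 TPM in Stiff-TW and rose by 1.62 ± 0.0193 (adjusted p = 2.12e-80). Of 13 genes linked to mesenchymal transition 9 rose and 2 fell.

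Plxna4, a receptor for semaphorins, rose by 2.80 ± 0.062 (adjusted p = 7.7e-68), and Vwa1, a matrix protein of basement membranes, by 2.70 ± 0.103 (adjusted p = 5.27e-46). Tmprss11b, a serine protease of the cell surface, stood at 4.19, 3.39 and 4.5 TPM in Stiff and 36.4, 36.9 and 36.3 TPM in Stiff-TW and rose by 3.23 ± 0.0784 (adjusted p = 5.2e-64). Sprr1a, a precursor of the cornified envelope of keratinocytes, stood at 17.4, 18.1 and 16 TPM in Stiff and 99.1, 105 and 102 TPM in Stiff-TW and rose by 2.68 ± 0.082 (adjusted p = 1.22e-54). Rgs16, an inhibitor of G protein signalling, rose by 2.56 ± 0.157 (adjusted p = 2.49e-29).

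Antiviral genes made up a further part of the largest rises. Of 30 interferon-stimulated genes tested, 25 were higher and 3 lower, with a median of 0.76, and 11 rose at least 2-fold. Rises were found for genes of each role in the list, that is factors, sensors and effectors. The transcription factors of the list rose. Irf7, the factor that amplifies interferon production, stood at 1.37, 1.92 and 1.61 TPM in Stiff and 16.4, 16.4 and 18.5 TPM in Stiff-TW and rose by 3.43 ± 0.139 (adjusted p = 9.13e-44), and Irf9, Stat2 and Irf1 rose by 0.91, 0.70 and 0.34. Dhx58, which encodes the RNA sensor LGP2, stood at 3.43, 3.25 and 2.84 TPM in Stiff and 15.6, 14.7 and 14.6 TPM in Stiff-TW and rose by 2.28 ± 0.102 (adjusted p = 5.38e-40). Rtp4, an interferon-induced chaperone of receptors, rose by 2.93 ± 0.169 (adjusted p = 2.44e-31), and Xaf1, a partner of apoptosis inhibitors, by 2.12 ± 0.113 (adjusted p = 6.31e-34). Oas3, which is not on the list and makes the second messenger that activates RNase L, stood at 1.27, 1.32 and 1.11 TPM in Stiff and 8.83, 8.88 and 8.17 TPM in Stiff-TW and rose by 2.83 ± 0.102 (adjusted p = 5.68e-48). Its relative Oas2, chosen after its values were seen, had 0 counts in each Stiff library and 55, 74 and 58 counts in the Stiff-TW libraries, at least 61.5-fold higher when 3 counts over the Stiff group are taken as the floor. The Oas genes are close paralogs, so the split of reads among them is uncertain. Rsad2, which encodes viperin, Oasl1 and Ifit2 fell, with -1.62, -0.47 and -0.13, so the list did not move as one.

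The interferon-stimulated response element was searched as TTCNNTTTC on both strands. Of 25 interferon-stimulated genes that rose, 19 had a promoter in the RefSeq table and 13 of the 19 (68.4%) held the element, as did 9.76% of all genes with a promoter there. Many genes of that list are known through this element, so the share describes the list and not an effect of TW. Among the 15 genes that rose most 1 of the 10 with a promoter held it, and among the 15 that fell most 1 of 12. The promoter of Oas3 (chr5:120777610-120777909, minus strand) is shown because it was the 1 gene among the 15 largest rises with the element. Capitals mark its matches, which overlap and read as the reverse complement of the element.
Oas3: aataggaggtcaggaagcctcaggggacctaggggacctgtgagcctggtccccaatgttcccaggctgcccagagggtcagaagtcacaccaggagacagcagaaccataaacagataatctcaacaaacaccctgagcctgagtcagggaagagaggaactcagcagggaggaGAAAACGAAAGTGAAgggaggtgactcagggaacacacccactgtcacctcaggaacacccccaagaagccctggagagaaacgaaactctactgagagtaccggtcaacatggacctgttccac

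Several transcripts of macrophages rose from very low levels in the same libraries. The macrophage and myeloid list had 20 genes in the table, of which 12 could be tested and 10 were higher in Stiff-TW, the other 2 not passing the test, while 8 were too scarce to test. Several of the tested members passed the filter on low counts only through groups in which they were higher. With the filter applied to the Stiff and Stiff-TW libraries alone, 7 could be tested and 6 were higher, and with limma on log2(TPM + 1) 5 could be tested and 4 were higher. Their summed level ran from 34.1 to 39.3 TPM in Stiff and from 60.8 to 64.3 TPM in Stiff-TW, and 5 of the 20 were at 0 in all Stiff libraries against 0 of the 20 in Stiff-TW. Ctss, which encodes cathepsin S, had 0 counts in each Stiff library and 23, 18 and 13 counts in Stiff-TW, at least 17.8-fold higher against the same floor. Laptm5, a lysosomal protein of blood cells, went from 0 in each library to 17, 14 and 16 counts, at least 15.5-fold higher. Cd68 stood at 4.17, 4.09 and 3.95 TPM in Stiff and 13.6, 10.7 and 11 TPM in Stiff-TW and rose by 1.60 ± 0.15 (adjusted p = 1.72e-17). Nos2, the inducible nitric oxide synthase, had 3, 2 and 7 counts in Stiff and 123, 134 and 143 in Stiff-TW, while Tyrobp, an adaptor protein of myeloid cells, had 0, 0 and 1 counts against 0, 3 and 1. Nos2 belongs to a list of cytokines and enzymes of activated macrophages, of which 3 could be tested, with 2 higher and Spp1, which encodes osteopontin, lower at -0.27. The other that was higher, Ccl3, had 1, 1 and 2 counts in Stiff and 5, 8 and 5 in Stiff-TW. With the filter applied to the Stiff and Stiff-TW libraries alone, 2 of that list could be tested and 1 was higher. With limma on log2(TPM + 1) 3 could be tested and 2 were higher. The summed level of that list ran from 2197 to 2248 TPM in Stiff and from 1744 to 1774 TPM in Stiff-TW. Only 1 of its 9 members, Spp1, had a mean of at least 10 TPM, so that sum was largely Spp1. Of fibroblast and mesenchymal markers 6 of 8 tested were higher and 1 lower, with a median of 0.43. Of osteoblast markers 3 of 5 were higher and 1, again Spp1, was lower. Their sum was lower, at 1910 to 1940 TPM in Stiff-TW against 2330 to 2380 TPM in Stiff. The 2 lower sums both rest largely on Spp1, so they are not separate results. Members of the endothelial list summed to 0.18 to 0.43 TPM in Stiff-TW and none could be tested. The part of these transcripts in the rise of interferon-stimulated and inflammatory genes was not tested.

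Immediate early genes were broadly higher. Of 33 genes, 28 rose and 3 fell, with a median of 0.66, and 13 rose at least 2-fold. Fosb stood at 5.54, 5.44 and 6.74 TPM in Stiff and 54.8, 54.2 and 53.3 TPM in Stiff-TW and rose by 3.24 ± 0.0554 (adjusted p = 2.76e-50). Its relative Fos, which like it forms AP-1 with JUN proteins, stood at 16.2, 15 and 16.4 TPM in Stiff and 95.8, 101 and 98.8 TPM in Stiff-TW and rose by 2.68 ± 0.0472 (adjusted p = 2.72e-77). Jun rose by 1.43 ± 0.0311 (adjusted p = 1.13e-68) and Maff, a small MAF factor, by 1.57 ± 0.0395 (adjusted p = 1.62e-62). The feedback phosphatase of ERK, Dusp6, stood at 64, 60.8 and 62.2 TPM in Stiff and 126, 126 and 129 TPM in Stiff-TW and rose by 1.07 ± 0.029 (adjusted p = 2.02e-59). Klf2 and Egr1, zinc finger factors, rose by 1.97 and 1.86. The genes that fell were Atf3, Myc and Ier5, with -0.47, -0.17 and -0.15.

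Inflammatory genes linked to NF-kB moved in both directions. Of 35 tested genes 22 rose and 10 fell, with a median of 0.23. The inhibitors of the pathway, Nfkbia and Tnfaip3, rose by 1.03 ± 0.0396 (adjusted p = 1.23e-45) and 1.45 ± 0.0634 (adjusted p = 6.85e-41), and C3, the central complement component, stood at 26.4, 27.4 and 29.6 TPM in Stiff and 87, 85.7 and 87.2 TPM in Stiff-TW and rose by 1.68 ± 0.0319 (adjusted p = 3.14e-74). Of 8 chemokine genes tested, 6 fell and 2 rose. Cxcl1, which attracts neutrophils, stood at 183, 192 and 187 TPM in Stiff and 97.6, 98.9 and 106 TPM in Stiff-TW and fell, with a log2 fold change of -0.80 ± 0.0437 (adjusted p = 3.35e-33). For Cxcl2, Cxcl5 and Cxcl10 the log2 fold changes were -0.72, -1.15 and -1.10. The 2 that rose were Ccl2 and Ccl7, by 0.10 and 0.33. Csf1, the growth factor of macrophages, stood at 331, 315 and 325 TPM in Stiff and 235, 226 and 230.1 TPM in Stiff-TW, a log2 fold change of -0.52 ± 0.0207 (adjusted p = 3.43e-44). Genes of class I antigen presentation rose in 12 of 16 cases and fell in 3, with H2-K1 at 0.40 ± 0.0193 (adjusted p = 3.56e-37) and Tapbp, the peptide loading factor tapasin, at 0.76 ± 0.0243 (adjusted p = 6.1e-53). H2-K1, a class I heavy chain, has close paralogs, so its share of reads is uncertain.

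The pathway list with the lowest median was that of the integrated stress response. Of 30 tested genes 27 fell and 2 rose, with a median of -0.83, and 10 fell at least 2-fold. Atf4, the factor that gives the programme its name, stood at 826, 821 and 849 TPM in Stiff and 585, 591 and 595 TPM in Stiff-TW, a log2 fold change of -0.44 ± 0.0202 (adjusted p = 6.53e-39). Its relative Atf5 stood at 299, 283 and 278 TPM in Stiff and 82.6, 84.8 and 82.8 TPM in Stiff-TW, a change of -1.73 ± 0.0321 (adjusted p = 9.64e-63). Trib3, which restrains ATF4, had -1.20 ± 0.0276 (adjusted p = 2.79e-66). The 2 that rose were Ddit3, which encodes CHOP, and Ddit4, by 0.42 and 0.37, the latter being a member of the hypoxia list too.

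All 10 enzymes of amino acid synthesis and all 7 amino acid transporters on that list fell. Psph and Phgdh are enzymes of serine synthesis. Psph stood at 193, 197 and 202 TPM in Stiff and 67.1, 68.7 and 64.6 TPM in Stiff-TW, a log2 fold change of -1.46 ± 0.0386 (adjusted p = 1.26e-60), and Phgdh stood at 615, 621 and 625 TPM in Stiff and 286, 299 and 295 TPM in Stiff-TW, a change of -1.03 ± 0.0215 (adjusted p = 5.75e-70). Cth, which makes cysteine, stood at 53.6, 59.4 and 59.9 TPM in Stiff and 16.2, 16.9 and 15.8 TPM in Stiff-TW, a change of -1.77 ± 0.0599 (adjusted p = 1.31e-50). Slc7a11, the cystine importer that is also a target of NRF2, stood at 112, 109.5 and 107 TPM in Stiff and 38.6, 37.7 and 36 TPM in Stiff-TW, a change of -1.52 ± 0.0233 (adjusted p = 3.91e-83). Phgdh, the most abundant of these 4 genes, fell least.

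On a list of antioxidant genes linked to the factor NRF2, 16 of 20 enzymes fell and 4 rose, with a median of -0.51, and 5 of 6 regulators and related genes fell and 1 rose. Srxn1, which reactivates peroxiredoxins, stood at 444, 434 and 446 TPM in Stiff and 225, 223 and 220.4 TPM in Stiff-TW, a log2 fold change of -0.94 ± 0.0202 (adjusted p = 4.04e-69), and Txnrd1, thioredoxin reductase, had -0.67 ± 0.0191 (adjusted p = 1.39e-57). G6pdx, which feeds the pentose phosphate pathway, had -0.81 ± 0.0223 (adjusted p = 5.37e-59), and Nfe2l2, which encodes NRF2, had -0.17. Hmox1, heme oxygenase, rose by 0.67. Gsta1, a glutathione transferase, showed the largest fall under the same rule as Ankrd37, from 29.4, 29.6 and 28.2 TPM in Stiff to 2.85, 3.72 and 4.5 TPM in Stiff-TW, a change of -2.87 ± 0.165 (adjusted p = 1.35e-27). Gsta1 has a near-identical relative in Gsta2, so its counts are uncertain.

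Genes for making ribosomes fell, while genes of the ribosome's own proteins moved little. Of 19 genes of ribosome biogenesis and Myc 18 fell, with a median of -0.70, and 6 fell at least 2-fold. Nop56, a core protein of the particles that methylate ribosomal RNA, stood at 315, 316 and 327 TPM in Stiff and 109.9, 107 and 107 TPM in Stiff-TW, a log2 fold change of -1.43 ± 0.0256 (adjusted p = 1.03e-76). Its partner Nop58 had -1.14 ± 0.0311 (adjusted p = 3.45e-54), nucleolin (Ncl) had -0.76 ± 0.0186 (adjusted p = 1.98e-63), and Rrp12, a factor that exports and matures ribosomal subunits, had -1.80 ± 0.0599 (adjusted p = 2.92e-51). Myc had -0.17, and Mycn was the exception, with 0, 0 and 1 counts in Stiff and 18, 8 and 11 in Stiff-TW. With the filter applied to the Stiff and Stiff-TW libraries alone Mycn was too scarce to test, and all 18 genes tested fell. Among 25 cytosolic ribosomal protein genes 19 rose and 2 fell, with a median of 0.15, and Rpl3 rose by 0.28 ± 0.0185 (adjusted p = 3.33e-27). With limma on log2(TPM + 1) 13 of the 25 rose and 7 fell, with a median of 0.04.

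Chaperone genes were examined by compartment. In the endoplasmic reticulum, Hspa5, which encodes BiP, stood at 1060, 1073 and 1075 TPM in Stiff and 1754, 1738 and 1765 TPM in Stiff-TW and rose by 0.76 ± 0.0178 (adjusted p = 1.32e-65), and 13 of 21 genes of the unfolded protein response rose while 4 fell. Ern1, which encodes the sensor IRE1, was one of those that fell, with -0.59 ± 0.0286 (adjusted p = 5.8e-37). In mitochondria, 10 of 14 chaperones and proteases fell and 2 rose, with a median of -0.33. Hspd1, the folding chamber HSP60, stood at 596, 602 and 587 TPM in Stiff and 291, 293 and 293 TPM in Stiff-TW, a log2 fold change of -0.98 ± 0.0205 (adjusted p = 6.31e-70), and the protease gene Lonp1 had -0.73 ± 0.0241 (adjusted p = 1.27e-51). Of 20 heat shock chaperones 12 fell and 6 rose. The largest of these rises was that of Cryab, the small chaperone alpha B crystallin, from 84.3, 78.5 and 83.7 TPM to 409, 421 and 418 TPM, a log2 fold change of 2.30 ± 0.038 (adjusted p = 4.29e-80).

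Other mitochondrial genes moved less. Of 52 nuclear genes for subunits of the respiratory chain 15 rose and 22 fell, with a median of -0.04. That split depended on the scale, with 12 rises and 26 falls with library totals, and 4 rises and 37 falls (median -0.16) with limma on log2(TPM + 1). Cycs, which encodes cytochrome c, had the largest fall of these at -0.84 ± 0.0276 (adjusted p = 1.35e-51), and Atp5a1, of the ATP synthase, rose by 0.28 ± 0.0203 (adjusted p = 4.85e-24). Of 32 genes of mitochondrial dynamics, biogenesis and transfer 8 rose and 17 fell. Those for the removal of mitochondria rose most: Bnip3, a receptor for mitophagy under low oxygen, stood at 109.5, 122 and 109.9 TPM in Stiff and 579.6, 597 and 600.3 TPM in Stiff-TW and rose by 2.44 ± 0.0312 (adjusted p = 3.33e-42), and its relative Bnip3l rose by 1.06 ± 0.0238 (adjusted p = 3.72e-67). Sqstm1, the cargo receptor p62, stood at 1710, 1691 and 1743 TPM in Stiff and 784, 772 and 792 TPM in Stiff-TW and fell, with -1.07 ± 0.0184 (adjusted p = 2.38e-78). Gja1, which encodes the gap junction protein connexin 43, rose by 1.01 ± 0.0257 (adjusted p = 4.83e-62). Ppargc1a, a coactivator of mitochondrial biogenesis, and Tfam, which packages mitochondrial DNA, fell, with -1.65 and -0.45. The motor adaptor genes Rhot1 and Trak1 did not pass the test, while Trak2 had -0.37.

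The genes Ddr2, Ptk2, Tiam1, Rhoa and Rac1 belong to collagen sensing and the control of small GTPases. Ddr2, through which cells sense collagen fibrils, stood at 81.1, 80.4 and 78.7 TPM in Stiff and 46, 47.8 and 46.8 TPM in Stiff-TW, a log2 fold change of -0.74 ± 0.0236 (adjusted p = 3.26e-53). Tiam1, which activates Rac, was scarce, with 21, 27 and 23 counts in Stiff and 2, 8 and 4 in Stiff-TW, a change of -2.28 ± 0.378 (adjusted p = 6.66e-08). Rhoa stood at 382, 369 and 379.5 TPM in Stiff and 445, 447 and 446 TPM in Stiff-TW and rose by 0.29 ± 0.0206 (adjusted p = 7.79e-25). The focal adhesion kinase gene Ptk2 rose by 0.14 ± 0.0273 (adjusted p = 2.16e-06). For Rac1 no difference was detected, with 354, 359 and 354 TPM against 349.7, 353 and 346 TPM and a log2 fold change of 0.02 ± 0.0209 (adjusted p = 0.344), whose sign turned under other scalings. Of 28 genes of endocytosis and small GTPases 11 rose and 11 fell.

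Lists tied to mechanical signals showed few changes of size. Of 14 YAP and TAZ targets tested 5 rose, 2 fell and 7 did not pass the test, with a median of 0.09, and of 5 factors of that pathway 3 rose and 1 fell. Ccn1, the matricellular protein CYR61, was the 1 target that rose at least 2-fold, from 103, 102 and 103 TPM to 204, 202 and 201 TPM, a log2 fold change of 1.03 ± 0.0275 (adjusted p = 4.82e-60), whereas Ankrd1 had -0.48. Of 27 genes of SRF, actin and focal adhesions 13 rose and 6 fell, but 11 rose and 10 fell with library totals as the scale, with Tpm2, a tropomyosin, at 0.76 ± 0.037 (adjusted p = 4.59e-37) and Flna, filamin A, at -0.40 ± 0.0192 (adjusted p = 4.92e-37). Among 25 lysosome genes 7 rose and 14 fell, among 17 genes of fatty acid oxidation 6 rose and 6 fell, and among 10 Wnt and Notch genes 3 rose and 1 fell, but 2 rose and 3 fell with library totals as the scale. Of 20 p53 targets 5 rose and 10 fell, with Cdkn1a, an inhibitor of cyclin-dependent kinases, at 0.35 ± 0.0236 (adjusted p = 1.42e-26) and the cyclin gene Ccng1 at -0.52 ± 0.0214 (adjusted p = 2.44e-43).

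Genes of the cell cycle parted by phase. Of 36 genes of DNA replication and S phase 26 fell and 7 rose, with a median of -0.31. Mcm2, of the replicative helicase, stood at 56.5, 57.2 and 59.8 TPM in Stiff and 34.3, 33.7 and 35.4 TPM in Stiff-TW, a log2 fold change of -0.70 ± 0.0355 (adjusted p = 8.43e-36). Of 40 genes of G2 and mitosis 25 rose, 4 fell and 11 did not pass the test, with a median of 0.14. Mki67, a marker of cycling cells, stood at 51.1, 51.8 and 51.7 TPM in Stiff and 65.3, 66.3 and 66.2 TPM in Stiff-TW and rose by 0.40 ± 0.0228 (adjusted p = 2.83e-31), and Anln, a scaffold of the contractile ring, by 0.32 ± 0.0215 (adjusted p = 9.53e-27). No member of the G2 and mitosis list changed by 2-fold.

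Enzymes of cholesterol synthesis rose together in small steps. Of 25 tested genes 23 rose and 2 fell, with a median of 0.46 and 1 rise of at least 2-fold. Hmgcs1, at the entry to the pathway, stood at 88.3, 90.6 and 84.6 TPM in Stiff and 130.5, 135 and 133 TPM in Stiff-TW and rose by 0.64 ± 0.0251 (adjusted p = 8.98e-45). Fdps, which makes farnesyl diphosphate, stood at 297, 291 and 294 TPM in Stiff and 464, 460.5 and 456 TPM in Stiff-TW and rose by 0.74 ± 0.0249 (adjusted p = 5e-51). Scap, which escorts the sterol sensing factor SREBP, was among those that fell, with -0.42. Of 12 genes of fatty acid synthesis and desaturation 7 rose and 3 fell, with the desaturase gene Scd2 at 0.85 ± 0.0179 (adjusted p = 1.52e-69) and Fasn, fatty acid synthase, at 0.31 ± 0.0221 (adjusted p = 1.95e-24). Acox2, an oxidase of bile acid intermediates in peroxisomes, fell from 10.9, 9.93 and 11.1 TPM to 1.33, 1.43 and 1.59 TPM, a change of -2.82 ± 0.131 (adjusted p = 1.02e-38). Acot2, a mitochondrial thioesterase with close paralogs, had -1.44 ± 0.0797 (adjusted p = 1.17e-32).

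Some large falls belonged to none of these groups. Tfrc, the transferrin receptor that imports iron, stood at 55, 56.4 and 54.1 TPM in Stiff and 20.2, 20.2 and 19 TPM in Stiff-TW, a log2 fold change of -1.45 ± 0.0332 (adjusted p = 1.6e-66). Its level with TW was thus well under that of every Stiff library. Tenm4, a teneurin of the cell surface, stood at 10.8, 10.5 and 10.8 TPM in Stiff and 1.77, 1.5 and 1.69 TPM in Stiff-TW, a change of -2.62 ± 0.0541 (adjusted p = 1.34e-70). Serpinb9g, of a family of close paralogs that makes its counts uncertain, had -2.30 ± 0.151 (adjusted p = 4.91e-27). Cyb5r1, a cytochrome b5 reductase, stood at 236, 224 and 229.8 TPM in Stiff and 77, 78.1 and 76.5 TPM in Stiff-TW, a change of -1.52 ± 0.0309 (adjusted p = 3.52e-71). The Stiff-TW libraries stood within 2 TPM of each other for both Tenm4 and Cyb5r1. Gpatch4, a nucleolar protein, had -1.52 ± 0.0685 (adjusted p = 9.81e-40), and Car6, a secreted carbonic anhydrase, stood at 36.6, 36.7 and 34.8 TPM in Stiff and 12.6, 10.9 and 11.5 TPM in Stiff-TW, a change of -1.56 ± 0.0855 (adjusted p = 5.89e-33).

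**Figure D3:**
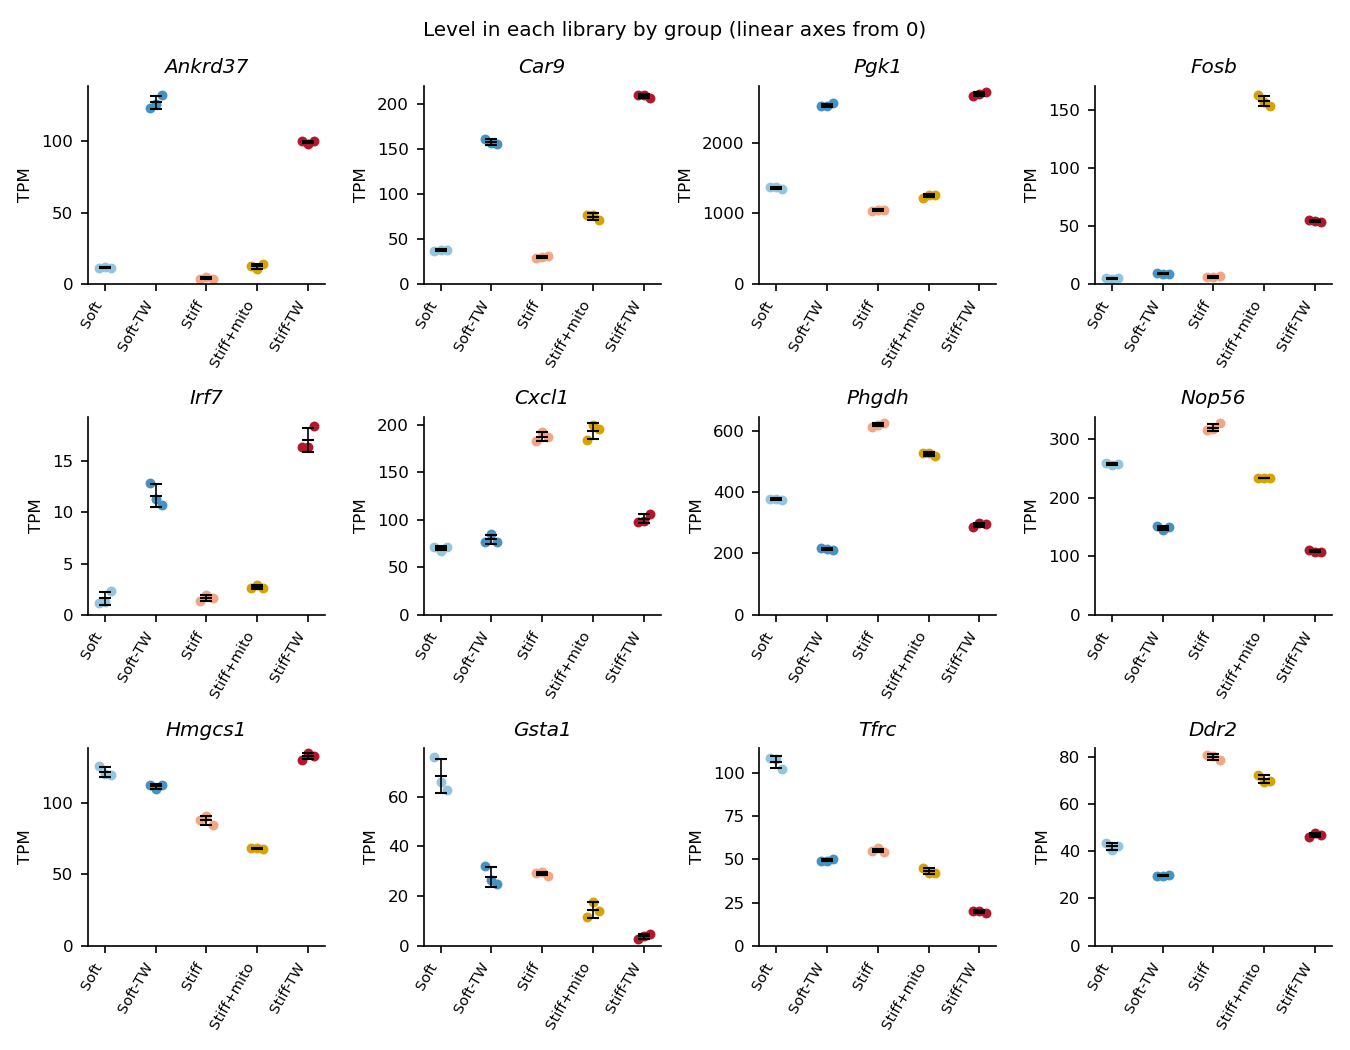
Each point is the TPM of a library, on linear axes from 0, for 12 genes in the groups Soft, Soft-TW, Stiff, Stiff+mito and Stiff-TW; black marks give the mean and SD (n = 3). For each gene the Stiff-TW points do not overlap the Stiff points, and for Fosb the Stiff+mito points lie above both.

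The same condition was also applied to cells on the soft matrix, with other libraries on both sides. The interaction asks whether the TW change on the stiff matrix differed from that on the soft matrix, and it was called for 4421 genes (36.1%), 2004 with the stiff change above the soft one and 2417 with it below. On the soft matrix 6964 genes changed and 356 of them by at least 2-fold, against 8521 and 752 on the stiff matrix. Of the 752 genes, 560 (74.5%) were also called in the same direction with TW on the soft matrix, 9 were called in the opposite direction, and 393 had an interaction. For comparison, of all 4345 genes higher on the stiff matrix 2901 were also called higher on the soft one. Of all 4176 genes lower on the stiff matrix 2719 were also called lower on the soft one. The 242 genes that fell at least 2-fold had a median of -1.31 on the stiff matrix and -0.50 on the soft one, and the 510 that rose had medians of 1.39 and 0.94. These genes were chosen for their change on the stiff matrix, which by itself favours a smaller median on the soft one. Across genes the log2 fold changes on the 2 matrices had a Pearson r of 0.731 over 12245 genes, which are not independent replicates.

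Hypoxia genes rose on both matrices, with medians of 1.43 and 1.27, and the interaction was called above 0 for 12 and below 0 for 9 of the 32. The integrated stress response differed: 25 of 30 genes had an interaction below 0, none had one above, and the median was -0.83 on the stiff and -0.32 on the soft matrix. For Trib3 the change was -1.20 on the stiff matrix and 0.09 on the soft one, with an interaction of -1.29 ± 0.0421 (adjusted p = 1.32e-50). Ribosome biogenesis genes had an interaction below 0 in 18 of 19 cases. Cholesterol genes had one above 0 in 24 of 25 cases, with a median of 0.46 on the stiff and -0.04 on the soft matrix, and G2 and mitosis genes in 36 of 40 cases, with medians of 0.14 and -0.21. The macrophage and myeloid list summed to between 42.4 and 43.5 TPM in Soft and between 94.4 and 99.3 TPM in Soft-TW, and its part in the differences between matrices was not tested. Of the NF-kB genes 16 of 35 had an interaction below 0 and 2 above it. Cxcl2 had -0.72 on the stiff matrix and 1.92 on the soft one, with an interaction of -2.64 ± 0.327 (adjusted p = 3.21e-11), on 24 to 49 counts in the libraries on the stiff matrix.

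Several genes with a large interaction already stood at different levels on the 2 matrices without TW. Tenm4 stood at 1.41 ± 0.188 TPM in Soft, 1.93 ± 0.132 in Soft-TW, 10.7 ± 0.172 in Stiff and 1.65 ± 0.139 in Stiff-TW, with an interaction of -3.20 ± 0.101 (adjusted p = 5.52e-52). Car6 stood at 7.55 ± 1.34, 15.2 ± 1.43, 36 ± 1.1 and 11.6 ± 0.849 TPM in the same order, with -2.68 ± 0.14 (adjusted p = 2.56e-33). Cdsn, an adhesion protein of keratinized cells, stood at 24.5 ± 0.771, 40.1 ± 1.83, 101 ± 3.8 and 41 ± 0.607 TPM, with -2.07 ± 0.0585 (adjusted p = 5.11e-56). In these 3 genes the means of Stiff-TW and Soft-TW were closer to each other than those of Stiff and Soft. In the other direction, Sprr1a stood at 76 ± 2.7, 112 ± 2.42, 17.1 ± 1.06 and 102 ± 2.77 TPM, with 2.03 ± 0.106 (adjusted p = 1.9e-33). Fosb stood at 4.57 ± 0.382, 8.39 ± 0.415, 5.91 ± 0.723 and 54.1 ± 0.762 TPM, with 2.24 ± 0.117 (adjusted p = 3.31e-24).

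**Figure D4:**
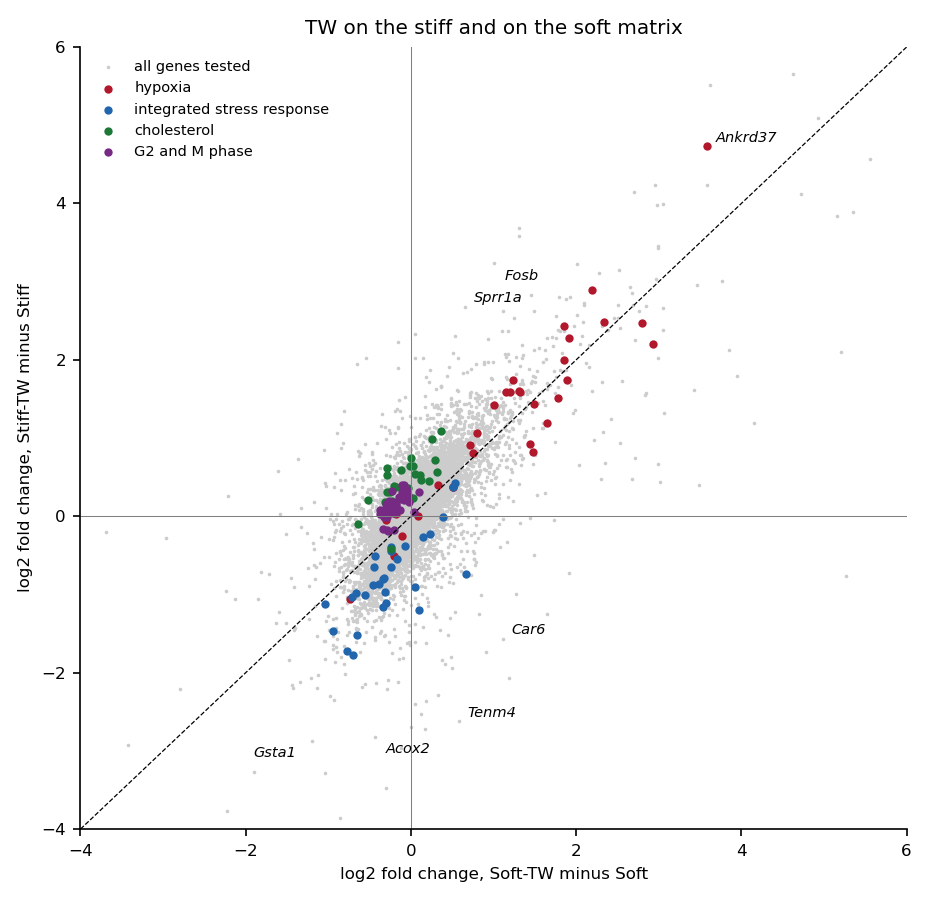
Each point is a gene, with the TW change on the soft matrix on the horizontal axis and that on the stiff matrix on the vertical axis (both log2 fold changes, from -4 to 6, with 18 genes outside); the dashed line marks equal change. Hypoxia genes (red) lie on both sides of the line, while integrated stress response genes (blue) lie mostly below it and cholesterol (green) and G2 and mitosis genes (purple) mostly above it.

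Cells with TW were also compared directly with cells given what is labelled mito on the stiff matrix. Between Stiff-TW and Stiff+mito 7590 genes differed (62.0%), 302 of them at least 2-fold higher in Stiff-TW and 158 at least 2-fold lower. This test uses no Stiff library. The hypoxia and interferon genes named here were higher with TW than with mito. Ankrd37 stood at 12.5, 10.4 and 13.4 TPM in Stiff+mito and had a difference of 3.17 ± 0.0804 (adjusted p = 7.27e-62), Irf7 had 2.72 ± 0.124 (adjusted p = 5.6e-39) and Rtp4 had 3.20 ± 0.175 (adjusted p = 9.35e-33). The macrophage and myeloid list summed to between 44.0 and 47.2 TPM in Stiff+mito, below its range in Stiff-TW, and its part in these differences was not tested. Pgf stood at 1.31, 1.39 and 1.68 TPM in Stiff+mito, a difference of 3.74 ± 0.145 (adjusted p = 3.08e-45). Fosb and Fos, in contrast, were lower with TW than with mito. Fosb stood at 163, 157 and 153 TPM in Stiff+mito, above the Stiff-TW libraries, and differed by -1.50 ± 0.0308 (adjusted p = 8.87e-46), while Fos stood at 241, 246 and 241 TPM and differed by -1.26 ± 0.0288 (adjusted p = 5.12e-66). Atf5 stood at 249.6, 242 and 235 TPM in Stiff+mito and was lower in Stiff-TW, with -1.49 ± 0.0327 (adjusted p = 4.39e-57), as were Tenm4 with -2.10, Acox2 with -2.20 and Gsta1 with -1.90.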

How the data were processed

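RNA was sequenced from 18 libraries in 6 groups of 3. The authors deposited estimated counts and TPM (levels corrected for gene length and library size) for 18397 genes of the mm10 build, per the file headers and the submitters' processing notes; neither aligner nor counter is given in the sources used here. Of the estimated counts, 10.9% were not whole within 0.001, and all were rounded. Averaged columns (44) were not used.

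edgeR 4.0.16 in R 4.3.3 was fitted to all 18 libraries with 6 group means (filterByExpr, TMM, robust quasi-likelihood). Benjamini-Hochberg adjustment was over the 12245 genes tested, with a threshold of 0.05. Standard errors were derived from the fold change and its F statistic and are approximate. TPM values are the authors' and are not rescaled by TMM. The fit was tested on simulated data. The gene lists and members were chosen with earlier results of these data known. Genes were named as the 15 rises and 15 falls of largest fold with a mean of at least 5 CPM and no overlap between groups, the 4 smallest adjusted p in each list, the 6 largest differences each way in the other contrasts, and Ddr2, Ptk2, Tiam1, Rhoa and Rac1. The search for motifs over whole lists was added after the data were seen. A few genes that this rule names are not reported here. The gene IDs of 18257 genes (99.2%) matched RefSeq, and 9 symbols of the lists were matched through synonyms.

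Same-numbered libraries of Stiff and Stiff-TW were not paired, since their deviations correlated at -0.014, -0.059 and 0.101. Alternatives were DESeq2 1.42.0 (its test and its size factors), library totals, other filters, limma 3.58.1 on log2(TPM + 1), a fit of 2 groups, a replicate block, and each library left out.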

Additional observations from a re-analysis of the deposited data

Results flagged for a closer look

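The change with TW differed between the stiff and the soft matrix for 4421 genes by the interaction test. Among them, 167 genes were higher with TW on the stiff matrix and lower on the soft one, and 135 were lower on the stiff matrix and higher on the soft one.

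By list, the interaction was above 0 for 24 genes of cholesterol synthesis, for 11 of fatty acid synthesis and desaturation and for 36 of G2 and mitosis, and it was below 0 for 12 p53 targets. Lists were flagged only where the median changed sign between the matrices and many members had an interaction, so neither is a separate result. Some of these medians were close to 0, such as -0.04 for cholesterol genes on the soft matrix and -0.09 for p53 targets on the stiff one.

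Among single genes the log2 interaction was 2.24 for Fosb, 2.03 for Sprr1a, 1.38 for Oas3, 1.36 for the matrix protease gene Mmp10, 1.30 for Ccno and 1.23 for Tmprss11b. It was -3.20 for Tenm4, -2.68 for Car6, -2.39 for Acox2, -2.07 for Cdsn, -1.67 for Gsta1 and -1.59 for Lyz2, the lysozyme gene of macrophages, which has a close paralog in Lyz1. Of the genes of collagen sensing and small GTPases, Tiam1 had -2.61, Ddr2 had -0.36 and Rac1 had 0.08.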

How the results depend on the processing

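The counts of genes changed, higher and lower, and those of the interaction and of the comparison with Stiff+mito, stayed within 1.5 times under every alternative run. Leaving out each library in turn gave between 8125 and 8183 changed genes, and between 776 and 800 changed at least 2-fold. With the replicate block, which the libraries' deviations gave no ground for, 8555 genes changed (4358 higher and 4197 lower), 749 at least 2-fold, 4502 had an interaction and 7624 differed from Stiff+mito. The count changed at least 2-fold fell from 752 to 341 with limma on log2(TPM + 1), a scale that compresses low genes and on which 11221 genes were tested. Rac1, which did not pass the test at first, had -0.025 with library totals as the scale and -0.026 with limma. Of the changed genes 51.0% were higher, against 44.4% with library totals and 43.2% with limma. Of the results for single genes under the alternatives, 2295 kept their direction and side of the threshold, 8 lost the call and 2 turned. Genes too scarce to be tested under an alternative are not in these counts for it. Depth limits the low genes: of the 510 that rose at least 2-fold, 145 had a mean under 10 counts in Stiff.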

Other observations

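The following families were grouped after their values were seen, so their counts are descriptions. Of 20 cytosolic aminoacyl-tRNA synthetase genes, which charge tRNAs with amino acids, 17 were lower with TW and 1 was higher, with a median of -0.54, and of 17 mitochondrial ones 13 were lower and none was higher, with a median of -0.30. The 1 that was higher was Qars. Of 17 circadian clock genes 12 were higher and 4 lower, among them Per1 at a log2 fold change of 1.92, Dbp at 1.80 and Bhlhe40, which low oxygen also induces, at 2.48. Of 10 prolyl and lysyl hydroxylases of collagen 8 were higher and 1 lower, with a median of 1.04. Genes of this kind, P4ha1 and P4ha2, were also counted on the hypoxia list.

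Among 8 carbonic anhydrase genes 4 were higher and 2 lower. Car2, a cytosolic member, had 1, 0 and 0 counts in Stiff and 26, 19 and 24 counts in Stiff-TW, and Car12, a membrane member like Car9, stood at 8.3, 8.71 and 9.17 TPM in Stiff and 47.2, 47.8 and 46.6 TPM in Stiff-TW, a log2 fold change of 2.47 ± 0.0481 (adjusted p = 3.85e-73). Of 10 genes of iron uptake and storage 7 were lower and 3 higher, with a median of -0.26, and Tfrc fell most.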
